A study of Mus musculus with 4 samples.

Results

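The 59 genes described here encode the mouse translation initiation factors (symbols that begin Eif), the elongation factors (symbols that begin Eef) and the enzymes named after them. They were taken from the gene annotation by symbol: every gene with a protein_coding transcript and a symbol of Eif or Eef followed by a digit, leaving out the eIF2 kinases (Eif2ak), the 4E-binding proteins (Eif4ebp), Eif2s3x, Eif2s3y and pseudogene symbols. They are 59 of 21901 genes with at least 1 protein_coding transcript. No expression value entered this choice by symbol, although earlier results of these data were known when it was made. PolyA-selected RNA was sequenced from inflammation-experienced regulatory T cells (Tregs), the CD4 T cells that express Foxp3 and restrain immune responses. The 4 libraries carry technical replicate numbers 1 to 4 of 1 biological replicate, so all come from the same biosample of a male mouse, 6 months old, of the strain Foxp3CreERT2 x Rosa26YFP. In such mice a Cre recombinase that tamoxifen activates is made from the Foxp3 gene, and Rosa26YFP is a fluorescent reporter that Cre switches on. How the inflammation was induced is not given in the sources used here. There is no second condition, so the results are levels, ratios between members and the spread between libraries. Every p-value rests on libraries of 1 sample only.

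An initiation factor brings the small ribosomal subunit, the initiator tRNA and the mRNA together. The cap is bound and the leader unwound by eIF4F, eIF3 holds the subunit, eIF2 carries the tRNA with GTP and is reloaded by eIF2B, and eIF1, eIF1A and eIF5 control which codon is accepted as a start. Elongation then needs eEF1A, which delivers aminoacyl-tRNA, the eEF1B subunits that recharge it, eEF2, which moves the ribosome along, and eIF5A, which helps it through difficult peptide bonds. Activated T cells raise protein synthesis steeply, and the mRNAs of elongation factors are classic targets of the mTOR pathway through a pyrimidine tract at their 5' end.

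The start codons of these genes are shown first because several of the proteins act on start-codon choice. Each window runs from 9 bases before the start codon to 4 bases after it in the most abundant protein_coding transcript of the GENCODE M21 annotation (mm10), on the strand of the gene, with the start codon in capitals.
Eif1: tcgtatcgtATGtccg
Eif1b: tagtgtcgcATGtcca
Eif5: taagccaaaATGtctg
Eif4g2: gccgccaaaGTGgaga
Eif4a1: ctaaggatcATGtctg
Eif4a2: tttcggatcATGtctg
Eif4a3: atccggatcATGgcgg
Eif3b: cgcgggcccATGcagg
Eif3f: ctcggcaagATGgctt
Eef1a1: aaagcaaaaATGggaa
Eef2: tccgccaccATGgtga
The start codon of Eif1 begins at position 100320130 of chromosome 11 (+ strand), that of Eif1b at 120492811 of chromosome 9 (+ strand) and that of Eif4g2 at 111081547 of chromosome 7 (- strand).

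Eif4g2, the eIF4G relative also called DAP5 that lacks the eIF4E-binding region, was the only member whose annotated start codon was not ATG: it was GTG. Of 55 members with a complete annotated start, that was 1, or 1.82%, against 8 of 9911 coding genes of at least 1 TPM, the length-corrected share of all transcripts, or 0.0807%. A favourable context was counted as a purine 3 bases before the codon together with a G just after it. Both features were present in 28 of 55 members, 50.9%, against 46.0% of the 9911 coding genes, and both were absent in 5 members, 9.09%, against 6.77%. The 5 were Eif1, Eif1b, Eif3b, Eif4g1 and Eef1akmt1. The paralogs Eif1, whose protein makes the ribosome pass over poor starts, and Eif1b thus both had annotated starts that lacked both features. The 3 Eif4a genes, which encode DEAD-box RNA helicases, shared the letters ggatc before the codon.

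The libraries held 9284432, 9341328, 9325636 and 6648385 expected counts in libraries 1 to 4. All 9 Treg markers were at or above 1 TPM in each library, with Foxp3 at 20.3, 21.7, 32.8 and 36.4 TPM. The 6 erythroid markers summed to 1067 TPM in library 1, against 4.60, 38.6 and 17.5 TPM in libraries 2, 3 and 4, so library 1 stood apart. The 6 B cell markers summed to between 80.4 and 183 TPM and the 7 myeloid markers to between 5.90 and 43.4 TPM, in both cases highest in library 1. The 5 CD8 T and NK markers summed to between 120 and 202 TPM, most of it Nkg7, and the 4 stromal and endothelial markers to at most 0.53 TPM, with Cdh5 at 0 in every library. The part of these cells in the values below was not tested, and in bulk RNA fewer cells of a type and less RNA per cell cannot be told apart. Libraries 3 and 4 were the closest pair, with a common biological coefficient of variation of 12.2% in edgeR, against 21.05% to 23.48% in the other 5 pairs.

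Nearly the whole translation factor set was present. At or above 1 TPM in all 4 libraries were 56 of 59 members, 94.9%, against 45.2% of 22015 nuclear genes annotated as coding. At or above 100 TPM were 22 members, 37.3%, against 4.91% of coding genes, and at or above 500 TPM were 10 members, 16.9%, against 0.854%. The median member level was 61.6 ± 3.24 TPM, where the error is the SD of the 4 library medians, against 18.02 ± 1.39 TPM for the 10552 coding genes of at least 1 mean TPM. Without library 1 the member median was 59.2 TPM. The members together took 2.15 ± 0.118% of all TPM (SD, n = 4 libraries), and Eef1a1 alone took 45.2 ± 0.993% of that sum.

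**Figure D1:**
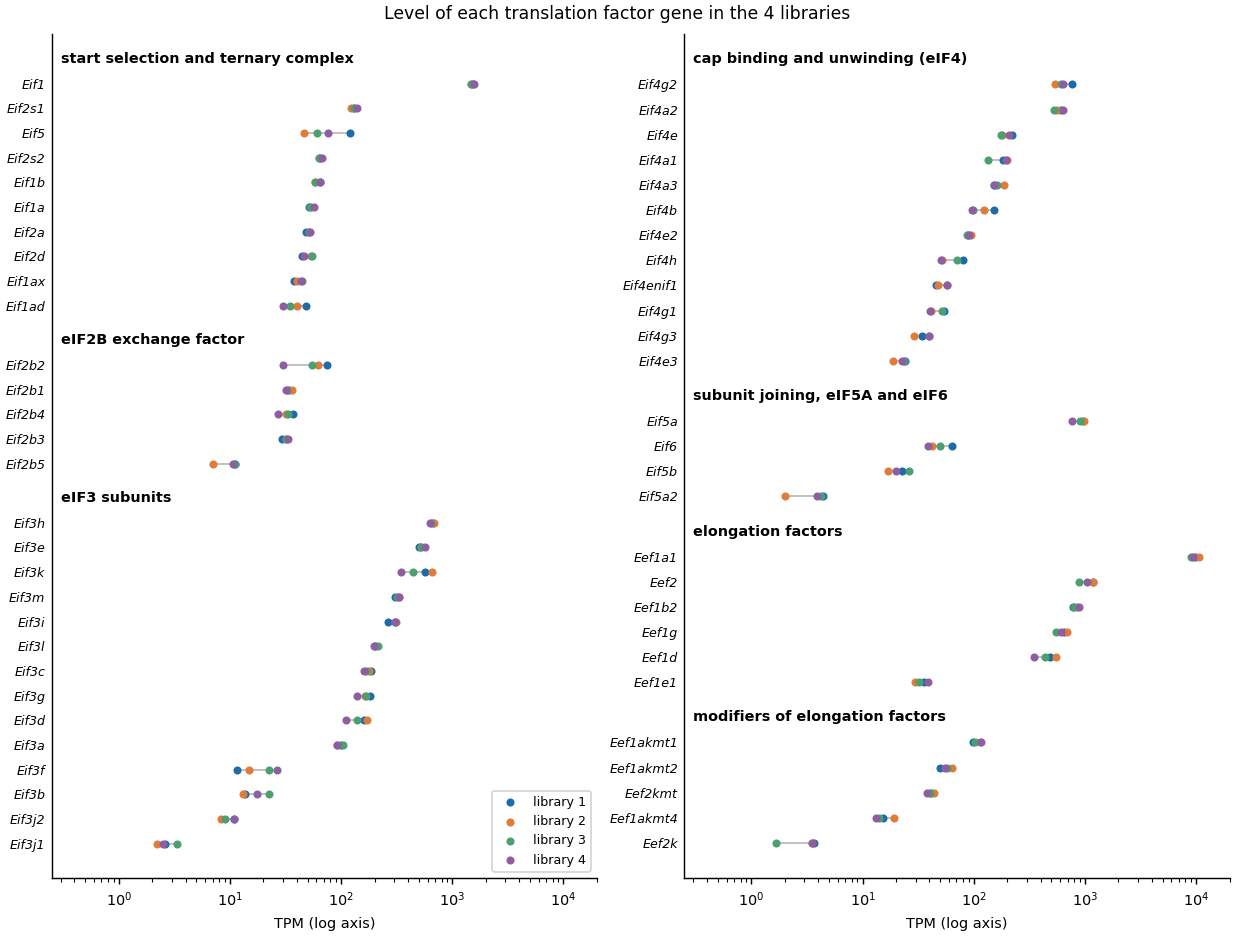
TPM on a log axis of the 56 members of at least 1 mean TPM, by role and in order of their mean. Each point is 1 of the 4 libraries and each grey line joins the lowest and the highest. Levels run from 2.66 TPM for Eif3j1 to 9723 TPM for Eef1a1 on average, and within most genes the libraries lie close together.

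Elongation factors were the most abundant role group, with a median of 626 ± 61.4 TPM over 7 genes (SD of library medians). Eef1a1, which encodes the main form of eEF1A, had 9848, 10642, 9082 and 9319 TPM in libraries 1 to 4 and was at rank 4 among nuclear coding genes. Eef1a2, the form of muscle and neurons, was listed at 0 in all 4 libraries of the gene table, so no ratio is given. Eef2 had 1181, 1175, 878 and 1053 TPM. Eef1a1 was thus 9.15 ± 0.852 times Eef2 in TPM (SD, n = 4), with libraries 1 and 2 high for both genes and library 3 low for both. The same ratio was 9.19 ± 0.801 in the read-based transcript table and 5.78 ± 0.567 in the whole-number gene counts scaled by length.

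The 3 eEF1B subunits, Eef1b2 with the exchange activity, Eef1d with a second exchange subunit and Eef1g with the structural one, averaged 826 ± 51.9, 457 ± 83.9 and 626 ± 61.4 TPM. Eef1a1 was 15.3 ± 0.171 times the mean of these 3 (SD, n = 4). Eef1d was the uneven member, with 487, 551, 440 and 351 TPM. It was highest in library 2 and lowest in library 4, a 1.71-fold span of CPM (counts scaled for library size and by TMM, not for length). Eef1e1, also called AIMP3, a scaffold part of the aminoacyl-tRNA synthetase complex, was far lower at 34.1 ± 4.08 TPM.

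The modifiers of elongation factors had a median of 28.1 ± 2.43 TPM over 6 genes and ranged widely. Eef2k, the kinase that inhibits eEF2, had 3.65, 3.48, 1.65 and 3.53 TPM, lowest in library 3, and its counts did not pass the test between libraries (adjusted p = 0.0942, Poisson likelihood ratio test). Eef2kmt, the methyltransferase of eEF2, had 40.8 ± 2.35 TPM. Among the methyltransferases of eEF1A, Eef1akmt1 had 98.4, 114, 102 and 116 TPM and Eef1akmt2 had 49.5, 64.0, 57.9 and 55.7 TPM. Eef1akmt4 averaged 15.5 ± 2.60 TPM and Eef1akmt3 was at or near 0, with 0, 0, 0.05 and 0.07 TPM.

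Among the factors of start selection and the ternary complex, Eif1 led with 1532, 1472, 1469 and 1569 TPM. Eif1b, whose protein is nearly the same, had 64.7, 58.8, 58.4 and 64.5 TPM. On the log2(TPM + 0.1) scale used for all pairs, Eif1 exceeded Eif1b by 4.62 ± 0.04 (SD, n = 4), a 24.5-fold ratio. In the gene table this was one of the steadiest pair ratios. It was 4.61 ± 0.05 in the read-based table and 4.12 ± 0.11 in the length-scaled whole-number counts. Over protein_coding transcripts alone it was lower, at 3.86 ± 0.15 in the gene table and 3.57 ± 0.10 in the read-based table. With 4 libraries the smallest two-sided p of the exact sign-flip permutation test is 0.125, which 11 of the 12 pairs tested reached, for an adjusted p of 0.136. No pair could therefore pass 0.05, and the pairs are given by size and spread.

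The genes of the eIF2 subunits differed in whole-gene level. Eif2s2, the beta subunit, had 64.8, 63.4, 63.3 and 67.5 TPM, and Eif2s1, the alpha subunit that stress kinases phosphorylate, had 130, 124, 130 and 139 TPM. Eif2s2 over Eif2s1 was -1.01 ± 0.04 on the log2 scale, with no overlap between the genes. That gap was -0.39 ± 0.12 in the read-based table and -1.46 ± 0.10 in the length-scaled whole-number counts. Over protein_coding transcripts alone the levels were 61.2 ± 1.51 TPM for Eif2s2 and 62.1 ± 4.85 TPM for Eif2s1, a log2 ratio of -0.02 ± 0.08, and the protein_coding transcripts of the read-based table gave 0.54 ± 0.16, with the order turned round. The gamma subunit comes from an X-linked and a Y-linked gene, counted here with the pathway: Eif2s3x averaged 57.5 ± 11.5 TPM and Eif2s3y 147 ± 25.5 TPM, so the Y copy was the higher in this male sample in all 4 libraries.

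Eif1ax and Eif1a encode the 2 forms of eIF1A. Eif1ax had 37.9, 40.4, 44.3 and 44.0 TPM and Eif1a had 51.0, 53.5, 52.5 and 57.7 TPM, so Eif1ax was lower by the gene table (log2 -0.37 ± 0.08). The order turned round in both other tables, with log2 ratios of 0.48 ± 0.23 in the read-based table and 0.79 ± 0.13 in the length-scaled whole-number counts, so which form is the more abundant is not settled. Over protein_coding transcripts alone the ratio was -1.43 ± 0.13 in the gene table and -1.44 ± 0.09 in the read-based table. Eif2a and Eif2d, which can place initiator tRNA without eIF2, averaged 50.9 ± 2.09 and 49.9 ± 5.10 TPM, and Eif1ad averaged 38.2 ± 7.74 TPM.

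Eif5, the GTPase-activating protein of eIF2, had 121, 46.2, 61.1 and 75.8 TPM, high in library 1. Its CPM moved less, by 1.61-fold between the highest and the lowest library. The transcripts assigned to it differed: the coding transcript Eif5-214, of 690 bases, took 23.8% of the gene TPM in library 1 and 0%, 1.32% and 0% in libraries 2 to 4 of the read-based table. The leading coding transcript, of 3547 bases, took 30.6% in library 1, against 67.0%, 57.6% and 54.6% in libraries 2 to 4. TPM divides counts by length, so a shift of the same counts to a short transcript raises the gene TPM. The part of such a shift in the Eif5 level of library 1 in the gene table was not tested.

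The exchange factor eIF2B is a complex of 5 different subunits, and its genes were all modest, with a group median of 32.4 ± 1.67 TPM. Eif2b1, Eif2b3 and Eif2b4 lay between 31.8 and 33.8 TPM on average, and Eif2b1 had 34.0, 36.4, 32.8 and 32.1 TPM. Eif2b5, which encodes the catalytic epsilon subunit, was the lowest with 11.1, 7.12, 11.2 and 10.6 TPM. Eif2b2, the beta subunit, was the highest of the 5 on average and the least steady of the 56 members tested, with 74.8, 62.1, 54.4 and 30.02 TPM. Library 4 was the low one for Eif2b2, 2.53-fold in CPM below the highest library (adjusted p = 1.47e-30, likelihood ratio test), and it was also the low one for Eif2b4 (37.0, 32.0, 33.6 and 26.9 TPM).

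The genes of eIF3, the initiation factor with the most subunits, differed widely in level. Leaving aside the loosely bound eIF3j, the 12 other subunit genes had a median of 189 TPM and differed by 39.3-fold between the highest and the lowest. Eif3h had 670, 687, 642 and 626 TPM, and Eif3e had 501, 519, 527 and 571 TPM. At the other end, Eif3b, a core scaffold subunit, had 13.6, 13.2, 22.3 and 17.6 TPM and Eif3f had 11.7, 14.8, 22.5 and 26.4 TPM. The highest value of either was 26.4 TPM, against 91.9 TPM for the lowest value among the other 10 subunits. These 2 genes were picked as the lowest of the 12 by the same values, so the gap is a description and not a test. Eif3g and Eif3i, whose proteins bind next to eIF3b, averaged 164 ± 18.5 and 297 ± 21.3 TPM. Eif3b and Eif3f were also the 2 lowest of the 12 in both other tables, where the full range was 31.5-fold (read-based) and 45.1-fold (whole-number counts).

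Eif3f, unlike the other members of large spread, was lowest in library 1 and highest in library 4, a 2.29-fold span in CPM (adjusted p = 7.13e-21, likelihood ratio test). Eif3k had 572, 655, 445 and 348 TPM, highest in library 2 and lowest in library 4, a 2.03-fold span (adjusted p = 2.84e-118). Eif3a, the largest subunit, was the steadiest member tested, with 98.8, 91.9, 103 and 92.6 TPM and an SD of 0.013 in log2 CPM (adjusted p = 0.867). The eIF3j genes were the lowest of the family: Eif3j1 had 2.63, 2.19, 3.32 and 2.51 TPM and Eif3j2 had 10.96, 8.33, 9.10 and 10.9 TPM.

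Eif3j1 and Eif3j2 are near copies of each other. Of the 31-base words of the leading Eif3j2 transcript, 94.9% also occurred in transcripts of other genes, mostly Eif3j1. The split of reads between them is therefore uncertain: Eif3j1 over Eif3j2 was -1.85 ± 0.29 on the log2 scale in the gene table and 1.42 ± 0.34 in the length-scaled whole-number counts, with the order reversed. Shares of such words over 40% were also found for Eef1a1 (72.3%), Eef1g (68.0%), Eif4a1 (67.5%), Eif4e (56.1%), Eif3m (53.7%), Eif4a3 (44.8%), Eef1akmt4 (43.8%), Eif3e (42.0%) and Eif3j1 (41.3%). For most of these the best match was a processed pseudogene, and how the authors' counting treated such reads is not given in the sources used here.

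Of the cap-binding and unwinding factors, Eif4g2 was the highest on average, with 771, 537, 606 and 639 TPM. It exceeded Eif4g1, the main eIF4F scaffold, by 3.76 ± 0.18 on the log2 scale, or 13.5-fold. Eif4g1 had 54.4, 41.6, 51.5 and 40.8 TPM and Eif4g3, the other scaffold, had 34.1, 29.0, 39.2 and 39.9 TPM. Eif4g1 was above Eif4g3 in every library, by 0.40 ± 0.27, a gap that was 0.03 ± 0.24 in the read-based table and -0.35 ± 0.51 over protein_coding transcripts alone.

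The helicase Eif4a1 had 184, 198, 135 and 193 TPM and its close relative Eif4a2 had 615, 561, 525 and 636 TPM. The log2 ratio of Eif4a1 over Eif4a2 was -1.73 ± 0.19, and it was -1.47 in the read-based table and -1.98 in the length-scaled counts. Over protein_coding transcripts alone it was -0.53 ± 0.17 in the gene table and -0.27 ± 0.13 in the read-based table. Eif4a3, the helicase of the exon junction complex, had 152, 186, 162 and 152 TPM. Eif4a1 and Eif4a3 did not differ beyond their spread (0.11 ± 0.27, exact permutation p = 0.375), and the length-scaled counts gave -0.95 ± 0.30 instead.

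The cap-binding protein gene Eif4e had 221, 179, 177 and 207 TPM. Eif4e2, the relative that represses translation, had 89.2, 93.8, 87.8 and 90.5 TPM, and Eif4e3 had 24.3, 18.6, 23.8 and 22.9 TPM. Eif4e exceeded Eif4e2 by 1.11 ± 0.17 and Eif4e3 by 3.12 ± 0.16 on the log2 scale. Eif4e over Eif4e2 was -0.18 ± 0.12 in the length-scaled whole-number counts, so that order rests on the table used. Eif4e1b, a germline form, was listed at 0 in all libraries of the gene table and averaged 1.09 ± 1.00 TPM in the read-based table. The helicase cofactors Eif4b and Eif4h averaged 118 ± 25.8 and 63.3 ± 14.9 TPM, both highest in library 1. By library Eif4h had 80.9, 51.6, 70.3 and 50.3 TPM.

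Among the late-acting factors, Eif5a had 967, 981, 904 and 769 TPM and its paralog Eif5a2 had 4.40, 2.01, 4.27 and 3.91 TPM. Eif5a exceeded Eif5a2 by 7.97 ± 0.60 on the log2 scale, a 251-fold ratio that was largest in library 2, where Eif5a2 was low. It was 10.09 ± 0.38 in the length-scaled whole-number counts, where Eif5a2 was under 1. Eif5b, which joins the ribosomal subunits, averaged 21.4 ± 3.96 TPM. Eif6, which keeps the large subunit apart until it is ready, had 64.2, 42.5, 49.3 and 38.9 TPM, highest in library 1.

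Counts of members were then compared between the libraries with a Poisson likelihood ratio test on expected counts, adjusted by the Benjamini-Hochberg method over all 13045 genes of mean count 10 or more. Of the 59 members 56 passed that filter. Of these 47 differed between the 4 libraries at an adjusted p of 0.05, 83.9%, against 68.6% of all genes tested. At mean counts of 100 or more the shares were 47 of 54 members, 87.0%, and 82.5% of all genes, so the members' share lay near that of all genes above the same floor. Depth above that floor was not matched. The 9 members that did not pass the test were Eef1e1, Eef2k, Eif1b, Eif2b1, Eif2b3, Eif3a, Eif3j1, Eif3j2 and Eif4e3. Of the 56 members 12, 21.4%, both passed the test and spanned 1.5-fold or more, against 37.5% of all genes. That gap rests on the counts and the filter used. In the read-based counts it was 18 of 57 members, 31.6%, against 35.4% of genes. The expected counts with no count filter also gave 18 of 57, 31.6%, against 22.8%. The number 12 depends on the cut too, as several members that passed the test lay just under it. Among these were Eif4g1 (1.493-fold), Eif1ad (1.490), Eif4b (1.490), Eef2 (1.489) and Eef1akmt2 (1.483). The nearest above the cut was Eif4a1 at 1.543-fold. The median SD of log2 CPM over the libraries was 0.178 for the members and 0.248 for all tested genes, and 0.173 against 0.206 at mean counts of 100 or more.

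**Figure D2:**
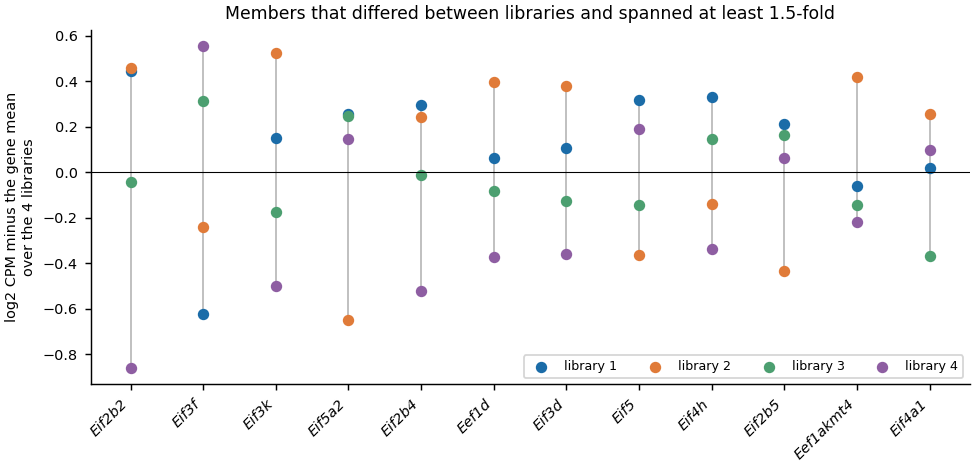
Log2 CPM of each library minus the gene's mean over the 4 libraries, for the 12 members that passed the test and spanned at least 1.5-fold, in order of their SD. Each point is 1 library and grey lines join the lowest and highest. Library 4 is the lowest for 7 of them, Eif2b2 at -0.86 being the farthest, whereas Eif3f is highest there at 0.55.

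By pairs of libraries, 36 members (64.3%) differed between libraries 1 and 2, against 39.3% of all genes. Between libraries 1 and 3 it was 28 members (50%), against 44.5%, and between libraries 1 and 4 it was 30 (53.6%), against 42.4%. Between libraries 2 and 3 it was 41 (73.2%), against 44.4%, and between libraries 2 and 4 it was 36 (64.3%), against 42.0%. Between libraries 3 and 4 it was 26 (46.4%), against 20.5%. At mean counts of 100 or more the members' shares were 66.7%, 57.4%, 63.0%, 70.4%, 61.1% and 48.1% in these 6 pairs, against 51.7%, 55.2%, 55.7%, 55.8%, 56.2% and 27.7% of all genes, so libraries 1 and 3, 1 and 4, and 2 and 4 gave shares near the background. In library 2, 40 of 56 members, 71.4%, were above their own mean, against 51.6% of all genes, and in library 3 it was 17 members, 30.4%, against 50.6%. The median deviation in log2 CPM was 0.12 for members in library 2, against 0.01 for all genes, and -0.06 in library 3, against 0.00. By role, the library 2 median was 0.27 for the modifiers, 0.25 for elongation factors, 0.12 for eIF3 subunits, 0.01 for the eIF4 group and -0.01 for the joining group. In libraries 1 and 4 the members' median deviations were -0.03 and 0.00. Without library 2 the number of members that passed the test was 37 and the number that also spanned 1.5-fold was 5, and without library 4 the 2 numbers were 42 and 6. Without library 1, which held the most erythroid RNA, they were 46 and 10.

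The deviations moved with properties of the transcripts. Over the 56 members, the deviation in library 4 had a Spearman correlation of -0.59 with the GC content of the leading coding transcript, against -0.35 over 10787 genes. The deviation in library 2 had a correlation of -0.52 with transcript length, against -0.32 over the same genes. In the other libraries the members' correlations with GC were 0.25, 0.45 and 0.01 in libraries 1, 2 and 3. With length they were 0.18, 0.17 and 0.24 in libraries 1, 3 and 4. These are correlations across genes of the same libraries, which are not independent, and the part of GC content and length in the differences was not tested. Eif2b2 (55.1% GC), Eif2b4 (56.8%) and Eif6 (57.9%), which were low in library 4, are GC-rich members. Eif5a2 (38.8% GC, 5027 bases), which was low in library 2, is among the long ones. Not every such member followed. Of the GC-rich ones, Eef2 (57.0%) was at -0.03 and Eif3b (55.9%) at 0.13 in library 4. Of the long ones, Eef2k (6580 bases) was at 0.25 and Eif1ax (5172 bases) at 0.09 in library 2.

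**Figure D3:**
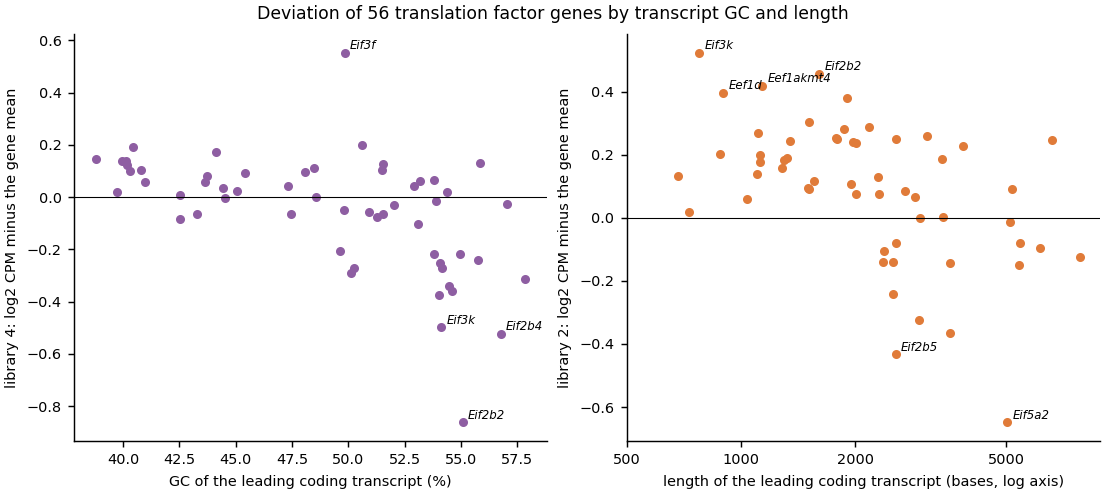
Deviation of each of 56 members, in log2 CPM from the gene's own mean over the 4 libraries, in library 4 against the GC content of its leading coding transcript (left) and in library 2 against the transcript's length in bases on a log axis (right). Each point is a gene, and GC-rich members tend to lie lower in library 4 and long ones lower in library 2, with Spearman correlations of -0.59 and -0.52.

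A gene's TPM includes transcripts that are not annotated to encode the protein. In the read-based transcript table the median share of protein_coding transcripts was 87.5% over the 56 members of at least 1 TPM, with 26 members at 90% or more and 11 under 50%. In the other transcript table the median was 92.7% and 4 members were under 50%. Eif4a2 was low in both tables, at 37.6 ± 1.502% and 37.8 ± 1.51%. Its nonsense-mediated decay transcripts took 29.3 ± 4.47% and its retained-intron transcripts 32.4 ± 2.89% of its TPM in the read-based table. Its protein_coding share by estimated counts was 55.8% and its retained-intron share 13.3%.

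Eef1b2 was also low in both tables, with 39.2 ± 1.58% in protein_coding transcripts by the read-based table and 32.9 ± 2.49% by the other. By estimated counts Eef1b2 had 44.3%. Its nonsense-mediated decay transcripts took 48.7 ± 1.29% and 58.2 ± 2.16%. The chief of them is 691 bases long and the leading coding transcript is 681 bases, so their lengths are close. Eif2s1 had 49.98 ± 1.69% and 47.5 ± 2.01% in protein_coding transcripts. Most of the remainder was a processed transcript of 433 bases, and by estimated counts the coding share of Eif2s1 was 90.6%.

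Eif1ax gave the lowest share, 26.6 ± 5.17% of TPM, but 87.6% of estimated counts: its coding transcript has 5172 bases and its retained-intron transcript 416. Eif1 had 49.0 ± 2.16% of TPM and 82.7% of counts in protein_coding transcripts. Eif2b2, which was low in library 4, had protein_coding shares of 46.5%, 38.8%, 30.8% and 31.5% in libraries 1 to 4, highest in library 1. Its mean share of counts was 63.7%. Eif4g1 had 75.3%, 51.8%, 51.0% and 54.3%, with library 1 above the others. The other members under 50% were Eif2a (31.5%), Eif5b (37.4%), Eif4enif1 (41.2%), Eef1e1 (43.7%) and Eef2kmt (49.5%). In that order their shares of estimated counts were 28.1%, 45.7%, 78.5%, 80.9% and 63.5%.

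**Figure D4:**
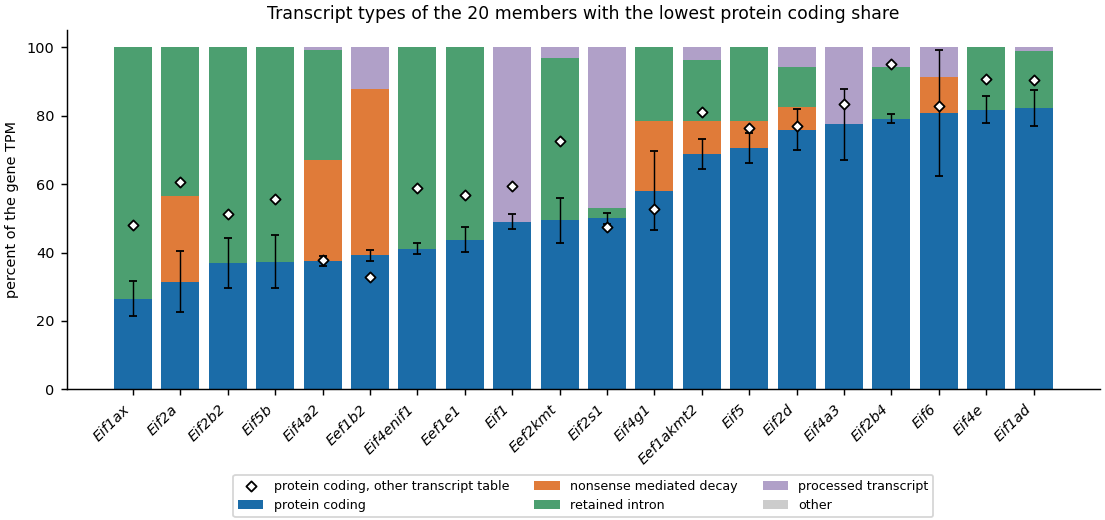
Share of the gene TPM by transcript type for the 20 members with the lowest protein_coding share in the read-based transcript table, as means over 4 libraries. Error bars are the SD of the protein_coding share over the libraries, and white diamonds are that share in the other transcript table. The 2 tables lie close for Eif4a2 and apart for Eif2a, at 31.5% and 60.6%.

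The pyrimidine tract that marks many mRNAs of the translation machinery was looked for at the annotated start of transcription, in RefSeq promoters of the build GRCm38.p6. The tract was taken as a C followed by at least 4 more C or T, beginning between 5 bases before and 10 bases after the start, on the strand of the gene. A match was counted from its first C within that range. A run of pyrimidines that begins earlier, as in Eif2b5, is thus counted and shown only in part. Windows of 30 bases around the start of 4 genes with a match and of Eef2, which had none in that range, are shown with the tract in capitals. The Eef2 window ends in ctctt, a C followed by 4 more pyrimidines, which begins beyond the range and was not counted.
Eef1a1: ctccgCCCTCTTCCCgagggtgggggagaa
Eif3f: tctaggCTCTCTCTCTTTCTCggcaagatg
Eif3l: gagttCTTCTTCCgctctctcccacgggct
Eif2b5: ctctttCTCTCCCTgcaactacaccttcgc
Eef2: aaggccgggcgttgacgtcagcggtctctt
The windows are, in that order, chr9:78481705-78481734 (- strand), chr7:108934405-108934434 (+ strand), chr15:79075213-79075242 (+ strand), chr16:20498807-20498836 (+ strand) and chr10:81176621-81176650 (+ strand).

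Of the 45 members with a promoter entry 10 had such a tract, 22.2%, against 27.7% of 27025 genes. The 14 members with no entry are outside all shares and medians given here, and whether they have a tract was not tested. Among them were Eef1d, Eef1g, Eif3e, Eif3h, Eif3i and Eif4g2, whose mean levels ran from 297 to 656 TPM. Per promoter the shares were 12 of 59, 20.3%, and 24.3% of 32851. With at least 6 pyrimidines after the C they were 15.6% of members and 10.3% of genes, and with the C exactly at the start 2.22% and 3.01%. The members with a tract had a median of 49.7 TPM and the 35 without a median of 64.8 TPM. They ran from Eef1a1 at 9723 TPM to Eif2b5 at 10.02 TPM. Eif3f, which had the longest tract shown as counted within the range, at 15 bases, was among the lowest eIF3 subunits. A match describes these letters at an annotated start only. How far that start lies from the one used in these cells was not tested. Neither a match, as in Eef1a1, nor its absence thus shows whether the mRNA begins with a tract.

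Levels also depended on the deposited table. Whole-number gene counts, made on the older annotation GENCODE M4, were divided by length and scaled to the same total. Relative to the gene table the members then had a median log2 difference of 0.40, against 0.05 for coding genes. Eif3j2 and Eif5a2 fell below 1 in the scaled counts, at 0.516 and 0.530, against 9.81 and 3.65 TPM in the gene table, and their ratios are left out of that median. Among the 53 members of at least 1 in both, Eif4e3 (-1.58), Eif1a (-1.34), Eif4e (-1.28) and Eif4h (-1.20) were lowest, and Eif2b4 (1.00), Eif3f (0.83), Eif2b5 (0.81) and Eef1akmt1 (0.81) highest. The whole-number counts of Eif4e were 818, 870, 883 and 729, against expected counts of 1768, 1815, 1845 and 1440. Those of Eif1a were 362, 459, 422 and 297, against 807, 906, 882 and 716.

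Read-based TPM, scaled over coding genes, differed less, with a median of -0.20 over members and -0.15 over coding genes. Eif1ax (0.53) and Eif2a (0.32) were the highest on that scale, and Eif4g1 (-0.45) and Eif4a2 (-0.45) were the lowest. Both other tables placed Eef1a1 highest, at 7251 ± 628 TPM in the scaled read-based table and 8570 ± 408 in the length-scaled counts, against 9723 ± 691 TPM in the gene table.

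**Figure D5:**
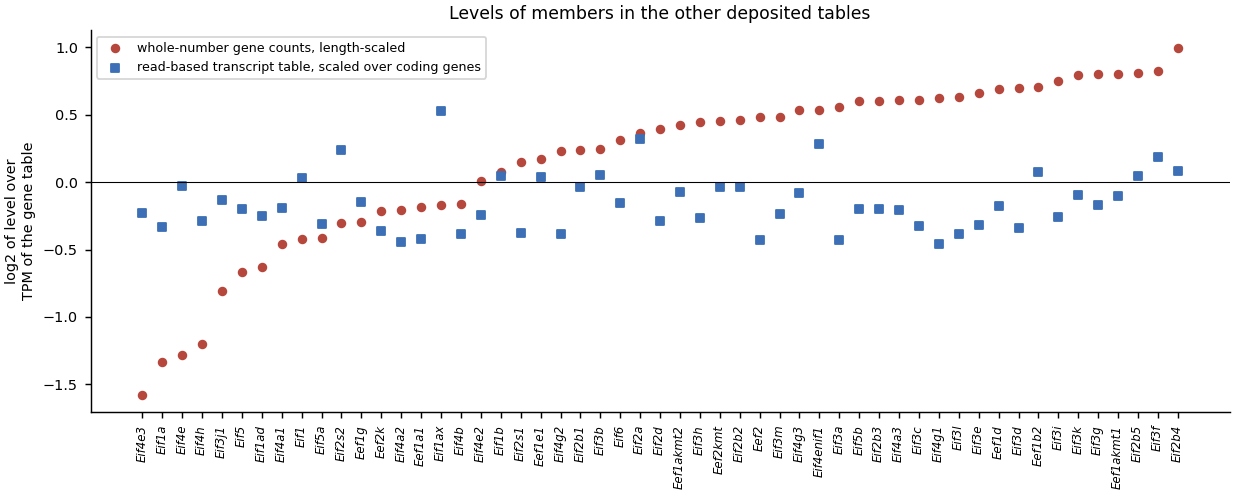
Log2 of the mean level of 53 members in 2 other deposited tables over their TPM in the gene table, for members of at least 1 in the gene table and in the length-scaled counts, ordered by the length-scaled whole-number counts (circles), with the scaled read-based TPM as squares. The circles run from -1.58 for Eif4e3 to 1.00 for Eif2b4, and the squares stay between -0.45 and 0.53.

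The wider pathway was given by 46 genes in 7 lists. Of these 45 were at or above 1 TPM in all libraries, with a median of 27.6 TPM over the 46. Of the 45 tested 39, 86.7%, differed between libraries, against 68.6% of all genes. By 1.5-fold or more it was 16, 35.6%, against 37.5%. At mean counts of 100 or more 82.5% of all genes differed, and 32.5% also spanned 1.5-fold. The pathway lists were not counted above that floor, so a share over 68.6% is not read as a result about a list. Pdcd4, which inhibits eIF4A, had the highest mean in the gene table, with 425, 258, 341 and 422 TPM, lowest in library 2. In the length-scaled whole-number counts Pdcd4 was at 74.2, below Pabpc1 at 321, Eif2s3y at 196 and Paip2 at 178. The poly(A)-binding protein Pabpc1 had 276 ± 27.9 TPM and its inhibitor Paip2 had 294 ± 13.6 TPM. Of the 7 genes of eIF2 kinases, phosphatase subunits and the downstream factor Atf4, 5 differed between libraries, 71.4%, against 68.6% of all genes. Ppp1r15a, the stress-induced phosphatase subunit also called GADD34, had 54.9, 68.8, 58.1 and 22.1 TPM, lowest in library 4, and Atf4 had 62.4, 82.2, 73.2 and 76.7 TPM.

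Of the 11 genes of cap-binding inhibitors and the TOR branch 10, 90.9%, differed between libraries, against 68.6% of all genes, and 2, 18.2%, also spanned 1.5-fold, against 37.5%. Eif4ebp1 and Eif4ebp2 averaged 14.4 ± 2.87 and 22.96 ± 2.67 TPM, an order that turned round in the length-scaled counts, at 12.7 and 2.31. In the gene table Eif4ebp3 had 1.05, 2.76, 8.63 and 2.21 TPM. Of the 8 hypusine and diphthamide enzymes, which modify eIF5A and eEF2, 7, 87.5%, differed, against 68.6% of all genes, and 6, 75.0%, also spanned 1.5-fold, against 37.5%. Dhps, the first enzyme of hypusine synthesis, had 34.9, 28.4, 30.6 and 19.0 TPM, and Dohh, the second, had 13.1, 6.31, 6.95 and 5.55 TPM. Of the 5 genes of poly(A)-binding proteins and their partners 4 (80.0%) differed. Of the 7 termination and recycling genes it was 5 of 6 tested (83.3%), and of the mitochondrial factors 6 of 6. Each share stands against 68.6% of all genes, or 82.5% of those of mean count 100 or more. Depth was not matched for any of the lists. Gspt2, the retrogene form of the release factor eRF3, had at most 0.29 TPM, against 24.8 ± 8.62 TPM for Gspt1.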

How the data were processed

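Members and lists were chosen with earlier results of these data known. The authors deposited, per library, a gene table with expected counts and TPM (main), 2 transcript tables with estimated counts, TPM and percent of gene TPM, and whole-number counts per gene. Per the submitters' processing notes and the notes beside the files, the build was mm10 with GENCODE M21, and M4 for the whole-number counts. No program or strand setting is named in the sources used here, so these are not stated. Rows outside the gene annotation held 0.133% to 0.504% of expected counts and were left out of tests. From the deposited values, expected counts were rounded, scaled by TMM (edgeR 4.0.16, R 4.3.3) and tested between libraries with a Poisson likelihood ratio test (SciPy 1.17.1), for genes of mean count 10 or more, at an adjusted p of 0.05. The test asks whether libraries differ beyond counting error. DESeq2 1.42.0 size factors were an alternative. Log2 CPM used a pseudocount of 0.5 and paralog ratios log2(TPM + 0.1), which understates ratios of low genes. The test was checked only on simulated Poisson counts, which hold counting error alone. That check does not cover the wider spread of these libraries. Fully given by library were the 2 highest members per role, paralog pairs, the 6 of largest SD, the 4 that moved most between tables (of at least 1 TPM in both) and those with 0 counts. Read-based TPM, where coding genes hold 47.8% of the total against 79.3% in the gene table, was also scaled over coding genes, an alternative added after the data were seen. Whole-number counts matched 58 members.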

Additional observations from a re-analysis of the deposited data

Results flagged for a closer look

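In each set of 4 library values, the farthest value was set against Dixon's 95% limit. Of 101 sets 8 passed it, where chance flags about 1 in 20. Eef2k was low in library 3, at 1.65 TPM beside 3.48 to 3.65 TPM elsewhere (gap over range 0.915). Its expected counts did not single out library 3, with 58, 77, 56 and 56 in libraries 1 to 4. Its protein_coding transcripts had 3.65, 1.86, 1.65 and 2.81 TPM in the same order. The part of transcript assignment in this flag was not tested. Eif2b5 was low in library 2, at 7.12 TPM beside 10.6 to 11.2 TPM (0.859). Eif3i was low in library 1, at 265 TPM beside 305 to 310 TPM (0.899). The log2 ratio of Eif5a over Eif5a2 was high in library 2, at 8.86 beside 7.58 to 7.75 (0.871). The median member level was high in library 1, at 64.8 TPM beside 58.0 to 58.8 TPM (0.883). The protein_coding share of Eef1g was high in library 4, at 85.4% beside 83.5% to 83.8% (0.866). That of Eif4g1 was high in library 1, at 75.3% beside 51.0% to 54.3% (0.863), and so was that of Eif4h, at 92.3% beside 84.4% to 85.5% (0.859).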

How the results depend on the processing

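The counts of members and of all genes that differed between libraries stayed within 1.5 times of the value given. This held under DESeq2 size factors, total counts, no count filter, the other gene table and the read-based counts. The shares moved more: with no count filter 9580 of 25782 genes, 37.2%, differed, against 68.6% with it. Of the members 46 of 57, 80.7%, then differed, against 83.9%. Members that also spanned 1.5-fold numbered 5 to 11 with a library left out, and 18 in the read-based counts and with no count filter, against 12. All genes that did so numbered 3210 to 3846, against 4887, and 2710 at mean counts of 100 or more. Of the 47 members called, 31 were called in every set of 3 libraries, and 11 were lost without library 2. Leaving out the 10 members with over 40% shared words gave 39 and 10 of 46 (added after the data were seen). The median SD of log2 CPM was 0.138 to 0.188 with a library left out. The median member level was 38.5 TPM in the read-based table, 63.6 TPM once scaled, and 74.2 in the length-scaled whole-number counts. The median protein_coding share was 92.7% in the other transcript table and 97.1% of estimated counts, with 4 and 3 members under 50%. The tract share fell to 2.22% when the C had to be at the start exactly. The log2 ratio reversed to -0.95 for Eif4a1/Eif4a3, -0.18 for Eif4e/Eif4e2, 1.42 for Eif3j1/Eif3j2 and 0.79 for Eif1ax/Eif1a in the length-scaled counts, and for Eif1ax/Eif1a to 0.48 in the read-based table, scaled or not. Over protein_coding transcripts alone, an alternative added after the data were seen, it reversed for Eif4g1/Eif4g3 to -0.35 in the gene table and -0.52 in the read-based table, and for Eif2s2/Eif2s1 to 0.54 in the read-based table. The cause was not tested. No paired analysis was possible because there is 1 group. The likelihood ratio test allows for counting error only, and the SDs and the sign-flip test use the spread between the 4 libraries. Libraries of 1 biosample say nothing of the spread between mice.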
